A study of Ovis aries with 18 samples.

Results

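miR-29a was followed in the plasma of ewes on 2 diets. It is 1 row, oar-miR-29a, of the 364 miRNA rows counted in 18 libraries. It was chosen by its name, with earlier results of these data known. The ewes were of the Polish Longwool breed, were ovariectomized and carried estradiol implants, in both diets alike. OBESE ewes were given a high-fat diet for 14 weeks, and CTRL ewes were given the standard diet. Blood was drawn at weeks 7, 10 and 14, and each diet and week is represented by 3 libraries made from 200 µL of plasma. The labels give 6 ewes per diet and no ages, and leave unsaid whether each library holds a single ewe or a pool. The p-values below thus rest on the spread among libraries, which may be partly technical, and 1 ewe may have contributed to libraries of several weeks.

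miRNAs are short RNAs that pair with messenger RNAs, mostly through the bases at their 5′ end, and lower their translation and stability. The miR-29 family is known in human and mouse for repressing genes of the extracellular matrix, among them collagens, elastin and fibrillin, so that a loss of miR-29 goes with fibrosis. In rodents miR-29 is raised in fat, muscle and liver in insulin resistance and diabetes, and it dampens insulin signalling when overexpressed in fat cells. Plasma miRNAs circulate in vesicles and protein complexes and come from blood cells, vessel walls and organs, so a plasma level does not name the tissue that released them.

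The libraries held between 388574 and 1269829 counts. Each level is relative to the other miRNAs of its library, and in bulk plasma fewer releasing cells and less RNA released per cell cannot be told apart. Levels are given as CPM, counts brought to a common library size after scaling by TMM, which sets the bulk of miRNAs equal between libraries. Set apart by TMM factors of 0.653 and 0.718, where the others lay between 0.891 and 1.19, were replicate 1 of CTRL week 7 and replicate 3 of CTRL week 14. There miR-16b, the blood-cell miRNA that dominated sheep plasma, took 53.9% and 55.1% of the counts.

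miR-29a was one of the more abundant miRNAs of sheep plasma. It averaged 4288 ± 961 CPM (SD, n = 18), the 16th highest mean of the 168 features kept for testing and the 11th highest of the 54 among them that carry a miRNA name. Within single libraries it ranked between 13 and 19 of 364. Just above it stood let-7i at 4778 ± 534 CPM and let-7c at 4724 ± 822 CPM, both of the growth-restraining let-7 family. Just below it stood miR-143, known from smooth muscle of vessel walls, at 2986 ± 732 CPM, and a feature without a miRNA name at 2931 ± 373 CPM. miR-29a was counted between 1413 and 8462 times per library. If each count is 1 molecule, its share of a library carries a counting error of 1.09% to 2.66% of the value.

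No other member of the family stood beside it. RefSeq, on assembly ARS-UI_Ramb_v3.0, lists MIR29A and 2 genes for miR-29b, MIR29B-1 and MIR29B-2, which neighbour each other around CD46 on another chromosome than MIR29A. In human, miR-29a is made together with a miR-29b copy from 1 transcript. None of the 107 named features was miR-29b or miR-29c, and the 257 features without a name come with no sequence. Whether reads of a near-identical family member were counted as miR-29a was therefore not tested.

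At week 10 miR-29a lay higher in the OBESE libraries. It stood at 6277, 5610.0 and 5113 CPM in OBESE replicates 1, 2 and 3, against 3369.9, 4333 and 3846 CPM in CTRL replicates 1, 2 and 3. Every OBESE library lay above every CTRL library of that week, and also above the highest CTRL library of any week, at 4775 CPM. Of 168 features, 11 (6.55%) lay higher in OBESE without overlap at week 10, and 11 (6.55%) lower. How many lay above the CTRL libraries of all weeks was not counted. As a share of all counts, miR-29a took 0.749%, 0.567% and 0.564% in the OBESE libraries and 0.364%, 0.421% and 0.383% in the CTRL libraries. The exact binomial 95% intervals of these shares ran from 0.546% upward in OBESE and to 0.437% at most in CTRL. They cover counting error only and take each count as 1 molecule.

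At week 7 the diets overlapped. miR-29a stood at 4109, 4135 and 3188 CPM in OBESE replicates 1, 2 and 3, and at 3458, 4117 and 4775 CPM in CTRL replicates 1, 2 and 3. The highest library was a CTRL library and the lowest an OBESE library.

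At week 14 the OBESE libraries were spread most widely. miR-29a stood at 5828, 4608 and 2986 CPM in OBESE replicates 1, 2 and 3, and at 3223, 4690.3 and 3523 CPM in CTRL replicates 1, 2 and 3. OBESE replicate 1 held the second highest level of all 18 libraries and OBESE replicate 3 the lowest, so the diets overlapped over the whole CTRL range.

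**Figure D1:**
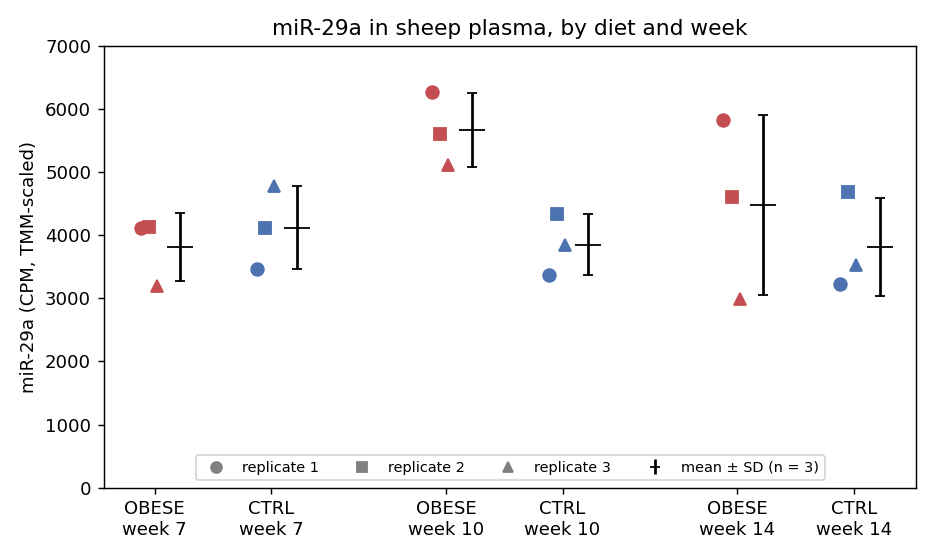
miR-29a in each of the 18 libraries, as TMM-scaled CPM on a linear axis from 0, by diet and week, with symbols for replicate numbers and black marks for the mean ± SD of 3 libraries. The 3 OBESE week 10 libraries lie between 5113 and 6277 CPM, above all CTRL libraries, whose highest is 4775 CPM. At week 10, 11 of 168 features (6.55%) lay higher in OBESE without overlap, and 11 (6.55%) lower.

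Ordered by mean, OBESE week 10 came first at 5667 ± 584 CPM, then OBESE week 14 at 4474 ± 1426 CPM, CTRL week 7 at 4117 ± 659 CPM, CTRL week 10 at 3849.6 ± 481 CPM, CTRL week 14 at 3812 ± 775 CPM and OBESE week 7 at 3811 ± 539 CPM (SD, n = 3 each). Each group overlapped its neighbour in this order, and the exact permutation p of the 5 steps between neighbours lay between 0.3 and 1, two-sided. A comparison of 3 libraries against 3 cannot go below an exact p of 0.1.

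The first comparison asks whether the high-fat diet goes with another plasma level of miR-29a over the whole period. The mean of miR-29a was 4650.5 ± 1153 CPM over the 9 OBESE libraries, against 3926 ± 581 CPM over the 9 CTRL libraries (SD). The fitted log2 fold change of OBESE over CTRL, averaged over the 3 weeks, was 0.23 (SE 0.133), a 1.17-fold difference, with a 95% interval of the log2 value from -0.06 to 0.51. The edgeR quasi-likelihood test gave an unadjusted p of 0.108 and an adjusted p of 0.487 (Benjamini-Hochberg over 168 features), so the difference did not pass. It was 0.14 without CTRL week 7 replicate 1 and likewise 0.14 without OBESE week 14 replicate 1, and 0.40 with library totals as the only scaling. Exchanging diets inside each week (exact permutation test, 8000 assignments, two-sided) gave a log2 difference of 0.22 and p = 0.152. Without OBESE week 14 replicate 3, the lowest library, the same test gave 0.30 and an exact p of 0.0413, and leaving out the other libraries 1 at a time gave exact p values up to 0.321. The 8000 assignments treat the 3 weeks as independent. With each replicate number first averaged over weeks, 3 against 3, the difference was again 0.22, with an exact permutation p of 0.4.

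By edgeR no feature passed in this comparison or in any other. At an adjusted p of 0.05, 0 of 168 features were called in each of the 12 comparisons, which is 0% in every one. For the diet difference averaged over weeks, 19 features, or 11.3%, had an unadjusted edgeR p under 0.05, and miR-29a was not among them. limma-voom called 0 with 20 at an unadjusted p under 0.05. DESeq2, run on all 364 features, called 3 with 27 under 0.05, and miR-29a was not called (DESeq2 adjusted p = 0.435, and 0.339 to 0.752 over all alternatives).

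At week 10 the fitted log2 fold change was 0.56 (SE 0.231), a 1.47-fold higher level in OBESE with a 95% interval from 1.05-fold to 2.06-fold. Its unadjusted edgeR p of 0.0274 was the 7th smallest of 168, in a comparison where 11 features, or 6.55%, had an unadjusted p under 0.05. Adjusted over the 168 features it was 0.643, and the difference did not pass. limma-voom and DESeq2 called 0 features at week 10, with 13 and 16 at an unadjusted p under 0.05. miR-29a was one of 11 features, 6.55% of those tested, whose OBESE libraries all lay above the CTRL libraries, and another 11 lay below without overlap. Across all 30 alternatives the log2 fold change at week 10 stayed positive, between 0.47 and 0.72, and the adjusted p lay between 0.482 and 1.

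At weeks 7 and 14 the 95% intervals of the diet difference included 0. The log2 fold change at week 7 was -0.11 (SE 0.231), with a 95% interval from -0.60 to 0.38 and an edgeR adjusted p of 0.929. It was 0.12 with library totals as the only scaling, and 0.01 without CTRL week 7 replicate 3. At week 14 the log2 fold change was 0.23 (SE 0.231), with a 95% interval from -0.26 to 0.72 and an edgeR adjusted p of 0.819. Without OBESE week 14 replicate 1 it was -0.03. Without both libraries of low TMM factor the log2 fold change was -0.28 at week 7, 0.60 at week 10, 0.16 at week 14 and 0.16 averaged over weeks. At an unadjusted p under 0.05 edgeR gave 9 features, or 5.36%, at week 7 and 13 features, or 7.74%, at week 14. At these weeks limma-voom called 0 with 10 and 13 under 0.05, and DESeq2 called 0 with 15 each.

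Within the OBESE diet, miR-29a lay higher at week 10 than at week 7. All 3 week 10 libraries, at 5113 to 6277 CPM, stood above the week 7 libraries, at 3188 to 4135 CPM. The log2 fold change of week 10 over week 7 was 0.57 (SE 0.231), 1.49-fold with a 95% interval from 1.06-fold to 2.09-fold. Its unadjusted edgeR p of 0.0240 was the 3rd smallest of 168, where 7 features, or 4.17%, had an unadjusted p under 0.05. The edgeR adjusted p was 0.897, so it did not pass. limma-voom called 0 with 6 under 0.05, and DESeq2 called 0 with 8. Groups did not overlap and were higher at week 10 for 11 features, 6.55% of those tested, miR-29a among them, and lower for 16, or 9.52%.

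Later in the OBESE diet the level was not separable from either earlier week. The log2 fold change of week 14 over week 10 stood at -0.34 (edgeR SE 0.231 and adjusted p = 0.758), and week 14 over week 7 gave 0.23 (SE 0.231, edgeR adjusted p = 0.837). Without OBESE week 14 replicate 1 these values were -0.61 and -0.04, and without OBESE week 14 replicate 3 the first was -0.18. At an unadjusted p under 0.05 edgeR gave 17 features, or 10.1%, for week 14 over week 10 and 13 features, or 7.74%, for week 14 over week 7. DESeq2 called 2 features for week 14 over week 10, with 16 under 0.05, and 0 for week 14 over week 7, with 15 under 0.05. limma-voom called 0 in both, with 20 and 12 under 0.05.

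Under the CTRL diet every difference of miR-29a between weeks was smaller than its SE. Week 10 over week 7 gave a log2 fold change of -0.10 (SE 0.231), week 14 over week 7 gave -0.11 (SE 0.231) and week 14 over week 10 gave -0.01 (SE 0.231). Their 95% intervals together ran from 0.661-fold to 1.39-fold, and the edgeR adjusted p values were 0.947, 0.977 and 0.989. All 3 had a positive sign under at least 1 alternative. For these 3 comparisons edgeR gave 3, 6 and 5 features at an unadjusted p under 0.05, or 1.79%, 3.57% and 2.98%. limma-voom called 0 in each with 3, 5 and 7 under 0.05, and DESeq2 called 0 with 5, 7 and 9.

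Whether the diets differed more at week 10 than at week 7 was tested as an interaction. The diet difference at week 10 exceeded that at week 7 by 0.67 on the log2 scale (SE 0.327), with a 95% interval from -0.02 to 1.36. The edgeR test gave an unadjusted p of 0.0561 and an adjusted p of 0.681, while 10 features, or 5.95%, had an unadjusted p under 0.05. The diet difference at week 14 exceeded that at week 7 by 0.34 (SE 0.326, edgeR adjusted p = 0.921), also with 10 features, or 5.95%, under 0.05. Leaving out 1 library moved the second value to between 0.08, without OBESE week 14 replicate 1, and 0.48, without CTRL week 14 replicate 2. Both missed the threshold, so a change of the diet difference between weeks is not shown. limma-voom called 0 in both, with 10 and 9 under 0.05, and DESeq2 called 0, with 13 and 12.

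**Figure D2:**
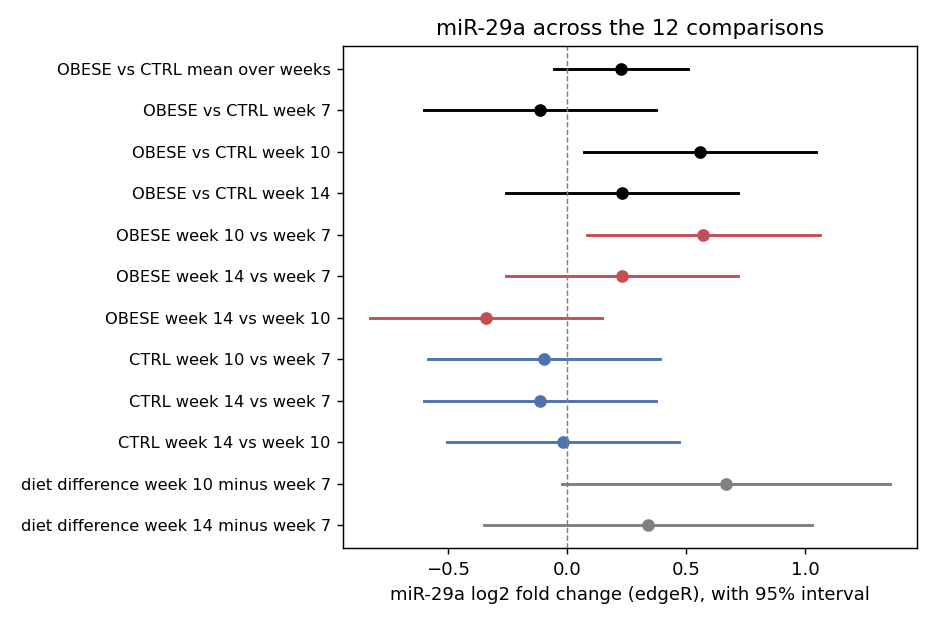
Fitted log2 fold change of miR-29a (points) with 95% intervals (lines) from edgeR in the 12 comparisons, with 0 marked by the dashed line. The intervals of OBESE over CTRL at week 10 and of OBESE week 10 over week 7 lie above 0, from 1.05-fold and 1.06-fold upward, but no comparison passed after adjustment over 168 features.

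Ratios of 2 counts within 1 library need no library scaling, so miR-29a was also set against 5 miRNAs used or proposed as plasma denominators. At week 10 the ratio to miR-16b was 0.0175, 0.0126 and 0.0123 in OBESE replicates 1, 2 and 3, against 0.00804, 0.00840 and 0.00836 in CTRL replicates 1, 2 and 3. The CTRL libraries lay close together and every OBESE library lay above them. The ratio to let-7a, a let-7 family member, was 0.303, 0.163 and 0.199 in the OBESE libraries against 0.134, 0.155 and 0.154 in the CTRL libraries, again without overlap. The week 10 diets overlapped for the other 3 denominators. The ratio to miR-191, abundant in platelets, ran from 0.102 to 0.172 in OBESE and from 0.0901 to 0.119 in CTRL libraries. The ratio to miR-103, a miRNA of insulin sensitivity, ran from 4.59 to 8.70 in OBESE and from 3.498 to 4.901 in CTRL libraries. The ratio to miR-23a, of the miR-23/27/24 clusters, ran from 4.34 to 6.05 in OBESE and from 4.05 to 4.44 in CTRL libraries.

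The size of the diet difference depended on the denominator, and none passed. Averaged over weeks, OBESE minus CTRL was 0.46 on the log2 scale per miR-16b (exact permutation within weeks, two-sided p = 0.0698), 0.26 per let-7a (exact p = 0.147), 0.21 per miR-103 (exact p = 0.355), 0.17 per miR-191 (exact p = 0.352) and 0.05 per miR-23a (exact p = 0.716). After Benjamini-Hochberg adjustment over these 5 ratios no exact p was below 0.349. With each replicate number first averaged over weeks, 3 against 3, the adjusted exact permutation p values lay between 0.667 and 0.8. Leaving out 1 library moved the difference per miR-103 to between 0.08, without CTRL week 7 replicate 1, and 0.33, without CTRL week 7 replicate 3. Per miR-191 it moved to between 0.08, without OBESE week 14 replicate 1, and 0.24, without CTRL week 14 replicate 2, and per miR-23a to between -0.02, without CTRL week 14 replicate 1, and 0.11. At week 10 all 5 log2 differences were positive, between 0.31 and 0.76. They use the same miR-29a counts and are not independent. At week 7 they were positive per miR-16b (0.20) and miR-103 (0.13) and negative per let-7a (-0.04), miR-191 (-0.32) and miR-23a (-0.39). Against miR-23a the week 7 diets did not overlap, with OBESE ratios of 3.88 to 4.67 below CTRL ratios of 4.95 to 6.22 (exact p = 0.1, adjusted 0.5 over the 5 ratios).

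**Figure D3:**
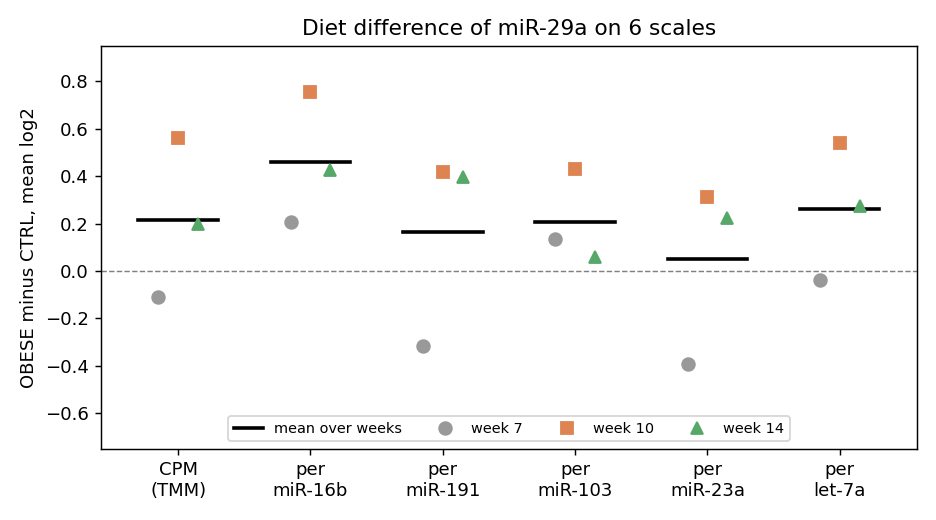
OBESE minus CTRL difference of mean log2 miR-29a on 6 scales, TMM-scaled CPM and the ratio to each of 5 denominators, at weeks 7, 10 and 14 (symbols) and averaged over weeks (black bars). The week 10 symbols lie above 0 on all 6 scales, from 0.31 per miR-23a to 0.76 per miR-16b, while the week 7 symbols fall on both sides of 0. All scales use the same miR-29a counts and are not independent.

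miR-29a was measured with a moderate spread between libraries. Its SD within groups was 0.28 on the log2 CPM scale, against a median of 0.47 over the 168 features, and 29 of the 168 had a lower one. Among the 41 features with a mean of at least 1000 CPM it was near the middle, with 17 lower and a median of 0.31. The corresponding SD was 0.19 for let-7a, 0.28 for miR-191, 0.30 for miR-23a, 0.33 for miR-16b and 0.41 for miR-103. The coefficient of variation of miR-29a ran from 10.3% in OBESE week 10 to 31.9% in OBESE week 14. These values were several times its counting error, if each count stands for a separate molecule. Whether depth limited the precision of these comparisons was not tested.

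The named miRNAs whose levels followed miR-29a most closely over the 18 libraries were found by Pearson's r of log2 CPM among 53 named features. The 5 highest were miR-23a (r = 0.61), miR-10b (r = 0.52), miR-99a (r = 0.49), the lymphocyte miRNA miR-150 (r = 0.45) and miR-191 (r = 0.34). The lowest were the growth-promoting miR-17-5p (r = -0.66) and let-7i (r = -0.53). The median over the 53 was -0.02, with 24 positive. After the group means were taken out, r was 0.68 for miR-23a, 0.33 for miR-10b, 0.32 for miR-99a, 0.30 for miR-150, 0.27 for miR-191, -0.28 for let-7i and -0.46 for miR-17-5p. The libraries share a scaling and may share ewes, so r is given as a description without a test. With library totals as the only scaling, r was 0.81 for miR-23a, 0.36 for let-7i and -0.16 for miR-17-5p. The sign for let-7i and the size for miR-17-5p thus rested on the scaling.

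**Figure D4:**
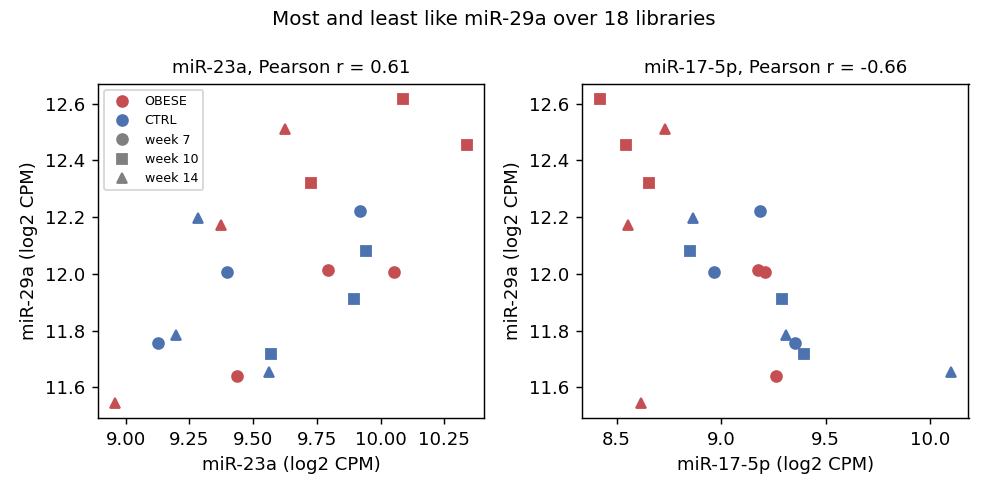
miR-29a against miR-23a (left) and miR-17-5p (right), both in log2 CPM, 1 point per library, coloured by diet with symbols for weeks. With TMM scaling, libraries with more miR-29a held more miR-23a (r = 0.61) and less miR-17-5p (r = -0.66). However, OBESE week 14 replicate 3, the lowest in miR-29a, had only 8.62 log2 CPM of miR-17-5p. Under other scalings r for miR-17-5p ran from -0.68 to -0.16.

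A pair of lists places miR-29a among miRNAs with a like role, and both were drawn up with earlier results of these data known. The lists share members with each other, and the adipose and insulin list also shares members with the denominators above and the cell markers below. miR-29a is itself a tested member of both and is counted in the values below. Without it the week 10 median of the collagen and fibrosis list was 0.31. In the collagen and fibrosis list 12 of 18 miRNAs were tested. For the diet difference averaged over weeks 8 were positive and 4 negative, with a median log2 fold change of 0.17. By week, 6 were positive and 6 negative at week 7 (median 0.01), 9 and 3 at week 10 (median 0.32), and 7 and 5 at week 14 (median 0.04). In the adipose and insulin list 13 of 19 were tested, with 7 positive and 6 negative values and a median of 0.01 averaged over weeks. By week, 9 of its members were positive and 4 negative at week 7 (median 0.15), 8 and 5 at week 10 (median 0.05), and 7 and 6 at week 14 (median 0.04). All 168 features had 82 positive and 86 negative values averaged over weeks and likewise at weeks 7 and 10, and 83 and 85 at week 14. Their medians were -0.0022 averaged over weeks, -0.02 at week 7, -0.03 at week 10 and -0.01 at week 14. With library totals as the only scaling, the averaged difference was positive for 121 and negative for 47 of all 168 features, for 11 and 1 of the collagen and fibrosis list, and for all 13 of the adipose and insulin list. At week 10 that scaling gave 95 and 73 of all features, 10 and 2 of the collagen and fibrosis list, and 10 and 3 of the adipose and insulin list. The averaged median of all 168 features then moved to 0.16, and miR-29a stood 0.24 above it, against 0.23 with TMM. The 2 members with the smallest p in both lists were miR-30a-5p, studied in fat cell differentiation, at 0.67 (SE 0.175, edgeR adjusted p = 0.113) and miR-26a at 0.32 (SE 0.132, edgeR adjusted p = 0.285). miR-30a-5p passed with DESeq2 (adjusted p = 0.0192), without the filter on low counts (edgeR adjusted p = 0.0329) and without OBESE week 10 replicate 1 (edgeR adjusted p = 0.0212), and over all alternatives its adjusted p ran up to 0.638. With edgeR as described above, 0 tested members passed in either list.

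Markers of blood cells and tissues were set beside the miR-29a difference. The red blood cell list had 3 of 6 members in the data, miR-16b, miR-106b and miR-25, and lacked miR-451, miR-486 and miR-144. At week 10 their summed level ran from 359498 to 445537 CPM in OBESE and from 420577 to 517297 CPM in CTRL libraries. Averaged over weeks the 3 log2 fold changes lay below 0, although 1 lay above 0 when TMM was not applied, with miR-106b at -0.40 (SE 0.192, edgeR adjusted p = 0.408) and miR-16b at -0.28 (SE 0.149, edgeR adjusted p = 0.465). The platelet list had 3 of 6 members, miR-191, miR-199a-3p and miR-21. Their summed level at week 10 ran from 34109 to 56044 CPM in OBESE and from 29938 to 44491 CPM in CTRL libraries. Of their log2 fold changes 2 were positive and 1, that of miR-21, was negative, both at week 10 and averaged over weeks. All 3 averaged values were positive with library totals as the only scaling. At week 10 the log2 fold change of miR-199a-3p was 0.54 (SE 0.252, edgeR unadjusted p = 0.0484, adjusted p = 0.676), close to the 0.56 of miR-29a, and that of miR-191 was 0.16 (SE 0.224, edgeR adjusted p = 0.837). Averaged over weeks miR-199a-3p had 0.17 (SE 0.145, edgeR adjusted p = 0.573) and miR-191 had 0.06 (SE 0.129, edgeR adjusted p = 0.880).

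Of the leukocyte list only miR-150, of lymphocytes, was in the data. At week 10 it ran from 8654 to 26790 CPM in OBESE and from 3658 to 12949 CPM in CTRL libraries, and in the OBESE diet it was higher at week 10 than at week 7, where it ran from 5560.1 to 8300 CPM, without overlap. Its log2 fold change of OBESE over CTRL at week 10 was 0.84 (SE 0.560, edgeR adjusted p = 0.722), and that of OBESE week 10 over week 7 was 1.12 (SE 0.563, edgeR adjusted p = 0.897), both larger in size than those of miR-29a and with larger SEs. Averaged over weeks the diet difference of miR-150 was 0.38 (SE 0.322, edgeR adjusted p = 0.573), with 0.12 without OBESE week 10 replicate 2 and 0.77 without CTRL week 7 replicate 3. Of the liver and muscle list miR-194, found in liver and gut, had 0.68 at week 10 (SE 0.459, edgeR adjusted p = 0.722) and 0.45 averaged over weeks (SE 0.265, edgeR adjusted p = 0.487). The muscle miRNA miR-133 had -1.95 at week 7 (SE 0.883), 1.26 at week 10 (SE 0.903) and -0.83 at week 14 (SE 0.891), with edgeR adjusted p values of 0.759, 0.757 and 0.819. Its average over weeks was -0.51 (SE 0.515, edgeR adjusted p = 0.663), with -0.80 without OBESE week 10 replicate 2 and -0.07 without CTRL week 7 replicate 1. miR-122, miR-192, miR-1 and miR-206 were not among the named features. miR-194 averaged 89.0 ± 32.5 CPM (SD, n = 18), well above miR-133. The summed level of miR-194 and miR-133 at week 10 ran from 113 to 141 CPM in OBESE and from 63.3 to 89.0 CPM in CTRL libraries, without overlap. At week 7 the sums overlapped, with 128 to 144 CPM in OBESE and 48.8 to 236 CPM in CTRL libraries. At week 14 they overlapped too, with 61.7 to 155 CPM in OBESE and 82.7 to 122 CPM in CTRL libraries. How many other sums of features separated at week 10 was not counted. At week 10 the share of miR-16b ran from 42.7% to 46.0% in OBESE and from 45.2% to 50.1% in CTRL libraries. Total counts then ran from 670547 to 1171984 in OBESE and from 388574 to 1269829 in CTRL libraries. The part of these in the miR-29a difference was not tested, except that with miR-16b left out of totals and scaling the week 10 log2 fold change was 0.59.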

How the data were processed

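Plasma small RNA of 18 libraries was sequenced as 76-nt single reads from a kit with molecular identifiers, per the labels' protocols. The raw counts per miRNA were deposited by the authors, and whether they are collapsed by identifier was not tested. Cutadapt 4.9, Bowtie 1.3.1 and DESeq2 1.42 were used, per the submitters' processing notes, while build and annotation were not given in the sources used here.

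From these counts, edgeR 4.0.16 (R 4.3.3) kept 168 features by filterByExpr (minimum count 10, minimum total 15), scaled them by TMM and fitted 6 diet-by-week groups with the quasi-likelihood test and Benjamini-Hochberg adjustment at 0.05. The 196 features left out held 0.0311% to 0.0614% of the counts of a library. SEs were computed from the F statistics. Single values and ratios were tested by exact permutation. limma 3.58.1 (voom), DESeq2 1.42.0, other scalings, filters, blocks and left-out libraries were alternatives. No pair of libraries held identical counts. The scripts were tested on simulated data. Named miRNAs were the most and least like miR-29a by r, and the members of each list with the smallest p. miR-29a and the lists were chosen with earlier results of these data known.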

Additional observations from a re-analysis of the deposited data

How the results depend on the processing

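Over 484 alternatives for the 18 miR-29a results, 454 kept direction and side of the threshold, 29 reversed and 1 passed. The week 10 diet difference (0.47 to 0.72), the diet difference averaged over weeks (0.14 to 0.40) and OBESE week 10 over week 7 (0.51 to 0.81) kept their sign on the log2 scale in every alternative, and none of these 3 passed. The cause of the reversals was not tested. Those of OBESE over CTRL at week 14 and of OBESE week 14 over week 7, both 0.23 with all libraries, came without OBESE week 14 replicate 1. Without scaling factors, OBESE over CTRL at week 7 was 0.12 and CTRL week 10 over week 7 was 0.069, which was 0.073 with named features only. CTRL week 14 over week 7 was 0.0021 without the filter. CTRL week 14 over week 10 was 0.0078 with RLE scaling, 0.17 with upper quartile scaling, 0.020 without the filter, 0.0077 with DESeq2, 0.059 without both libraries of low TMM factor and 0.039 without miR-16b. The diet difference of miR-191 was -0.033 with named features only.

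Leaving out 1 library at a time gave log2 values from -0.26 to 0.013 for OBESE over CTRL at week 7, from -0.031 to 0.35 at week 14, from -0.036 to 0.43 for OBESE week 14 over week 7, from -0.20 to 0.029 for CTRL week 10 over week 7, from -0.24 to 0.0090 for CTRL week 14 over week 7 and from -0.14 to 0.13 for CTRL week 14 over week 10. It gave 0.14 to 0.30 for the exact test of CPM averaged over weeks, -0.025 to 0.11 per miR-23a (negative without CTRL week 14 replicate 1) and -0.056 to 0.11 for the diet difference of miR-191.

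Libraries with the same replicate number correlated above 0.1 across weeks of a diet in 16 of 18 pairs (lowest -0.0245), and 34 of 36 comparisons were best with the own number. Between the diets of a week, 15 of 18 comparisons were also best with the own number. There the median r was 0.060 for the same and -0.066 for different numbers, and 4 of 9 pairs with the same number lay above 0.1. What the numbers share across diets was not tested. Not every pair passed, and the labels give the numbers no meaning, so the main fits above do not use them. With the replicate block within diet, OBESE week 10 over week 7 was 0.58 (limma or edgeR adjusted p between 0.401 and 0.695 over the 3 blocks). Its unadjusted limma or edgeR p lay between 0.0057 and 0.0220. The diet difference at week 10 minus that at week 7 was 0.68 with the block within diet (SE 0.257). Over the 3 blocks its limma or edgeR p lay between 0.0185 and 0.0494 unadjusted and between 0.376 and 0.664 adjusted. The 3 blocks called 0 of 168 features in every comparison except OBESE week 14 over week 10, with 2 calls with the number over all libraries and 4 with a random block.

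With 3 libraries a group, the spread of miR-29a between libraries exceeded its counting error, if each count stands for a separate molecule. The part of depth in the limits of these comparisons was not tested.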
